A study of Mus musculus with 12 samples.

Results

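Chemokines and chemokine receptors were followed in azoxymethane-induced colon tumours of mice that lacked miR-34a, p53 or both in the intestinal epithelium. The members were taken by gene symbol: every symbol of the Ccl, Cxcl, Ccr or Cxcr series, and Cx3cl1, Cx3cr1, Xcl1, Xcr1, Pf4 and Ppbp. This gave 51 genes of 21792 in the table, 37 ligands and 14 receptors, of which 49 reached a mean value of 1 and were tested among 21322 genes. Xcl1 and Ccr8 lay below that mean. The rule reads the symbol and no measured value.

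All mice were FvB and received azoxymethane (AOM), an alkylating carcinogen that induces colon tumours, by weekly intraperitoneal injection of 10 mg/kg for 6 weeks. Colon tumours were taken 16 weeks after injections began. Double deficient tumours lacked miR-34a and p53 in intestinal epithelial cells, p53 deficient and miR-34a deficient tumours lacked 1 of the genes there, and wt tumours carried no deletion by their labels. Total RNA of 3 libraries of each genotype was sequenced, 12 in all. The labels name neither the promoter that drove the deletions nor whether each replicate was an animal of its own, so every p-value reflects only how much these libraries vary, which may be technical. RNA came from tumour tissue, so immune and stromal cells, for which the labels give no deletion, contribute to every value. In such bulk samples fewer cells of a type and less RNA per cell cannot be told apart.

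Chemokines are small secreted proteins that direct the migration of leukocytes along concentration gradients by signalling through G protein-coupled receptors on those cells. Inflammatory ligands are switched on in epithelium, stroma and myeloid cells by NF-kappaB and interferon signalling, whereas homeostatic ligands are made steadily and position lymphocytes in mucosa and lymphoid tissue. In the colon, ligands of CXCR2 draw neutrophils into inflamed and tumour tissue, and epithelial ligands such as Ccl20, Ccl25, Ccl28 and Cx3cl1 place lymphocytes and macrophages near the epithelium.

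Values are normalized scores per gene, rounded to whole numbers by the authors, and not read counts, so depth is unknown. No correction for gene length is stated, so values are compared between genotypes and not between genes. Values given 3 in a row are libraries 1, 2 and 3 of a genotype. A log2 difference is the difference of the mean log2(value + 1) of the genotypes ± SE (n = 3 each), from a limma fit over all genes, and a member is called where the Benjamini-Hochberg adjusted p over all tested genes is under 0.05. Trp53 was at 924, 504 and 724 in double deficient, 598, 401 and 576 in p53 deficient, 4357, 3466 and 5120 in miR-34a deficient and 4512, 4305 and 4126 in wt tumours. miR-34a itself was not analysed here. Libraries also differed beyond genotype. Y-linked genes were at 0 in wt 1 and miR-34a 1 and near 0 in the 3 double deficient libraries. In the p53 deficient libraries their mean log2 was 3.73, 5.21 and 6.98. The X-linked gene Xist was at 15086160 in wt 1 and 53418083 in miR-34a 1, and at 698 to 126761 in the other libraries of these genotypes. It was at 2878644, 2202682 and 563257 in double deficient and 4877, 694 and 107 in p53 deficient libraries. In double against p53 deficient tumours, genotype and the Y-linked and Xist levels therefore cannot be told apart for any member. Posterior Hox genes had a mean log2 of 8.40 in p53 2 against 11.7 to 15.6 in the other libraries. The library names of miR-34a 1 and p53 1 carry another run code. All 10 epithelial markers were above 0 in every library, with Vil1 at 16701 to 29871 and Cdx2, the lowest of them, at 24 to 325. One direction of variation within genotypes is absent from the deposited values and falls mainly on double deficient libraries 3 and 2 (47.2% and 16.5% of its weight). The fit pools the spread of all genotypes, so the errors of every comparison may be too small.

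Most members lie in gene clusters. On chromosome 5, 10 CXC ligands, among them Cxcl5, Ppbp, Pf4, Cxcl3, Cxcl1 and Cxcl2 and, farther along, Cxcl9, Cxcl10 and Cxcl11, occupied 1.61 Mb (GRCm38, chr5:90759360-92365485). On chromosome 11, 11 CC ligands from Ccl2 to Ccl4 occupied 1.63 Mb (chr11:82035571-83664683), and the receptors Ccr9, Xcr1, Ccr1 and Ccr2 lay near each other on chromosome 9. The promoters of the neutrophil ligands Cxcl1, Cxcl2 and Cxcl3 and of the interferon-induced ligand Cxcl10 are printed because these ligands of 1 cluster, answering to NF-kappaB and interferon, recur in the results. Each is the RefSeq window of GRCm38.p6 from 250 bases before to 50 bases after the start site, 5′ to 3′ on the gene's strand, with capitals for an NF-kappaB motif (GGGA, any 2 bases, T, any base, CC) or an interferon response element (GAAA, any 2 bases, GAAA) on either strand.
Cxcl1 (chr5:90890995-90891294, plus strand): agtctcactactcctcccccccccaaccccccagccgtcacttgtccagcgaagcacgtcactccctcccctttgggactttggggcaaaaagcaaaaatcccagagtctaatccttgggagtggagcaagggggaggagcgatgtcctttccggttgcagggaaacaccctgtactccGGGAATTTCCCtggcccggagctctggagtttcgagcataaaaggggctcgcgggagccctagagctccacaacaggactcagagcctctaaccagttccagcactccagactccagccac
Cxcl2 (chr5:90903649-90903948, plus strand): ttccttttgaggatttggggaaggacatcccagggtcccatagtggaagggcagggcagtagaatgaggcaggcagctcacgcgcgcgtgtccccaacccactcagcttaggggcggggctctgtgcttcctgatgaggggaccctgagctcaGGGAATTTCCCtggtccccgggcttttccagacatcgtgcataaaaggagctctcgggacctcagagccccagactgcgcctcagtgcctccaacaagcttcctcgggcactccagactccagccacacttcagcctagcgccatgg
Cxcl3 (chr5:90785851-90786150, plus strand): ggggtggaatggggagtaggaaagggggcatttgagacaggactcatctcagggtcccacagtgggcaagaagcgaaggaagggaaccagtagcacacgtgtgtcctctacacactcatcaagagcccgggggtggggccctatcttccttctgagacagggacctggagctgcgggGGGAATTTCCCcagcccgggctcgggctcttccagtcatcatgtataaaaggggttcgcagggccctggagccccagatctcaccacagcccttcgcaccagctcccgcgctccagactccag
Cxcl10 (chr5:92348840-92349139, minus strand): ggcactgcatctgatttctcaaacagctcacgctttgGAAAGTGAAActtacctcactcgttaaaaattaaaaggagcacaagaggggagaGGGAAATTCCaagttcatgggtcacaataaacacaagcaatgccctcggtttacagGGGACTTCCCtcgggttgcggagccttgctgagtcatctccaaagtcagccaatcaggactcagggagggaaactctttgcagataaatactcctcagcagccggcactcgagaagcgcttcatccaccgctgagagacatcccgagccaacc
The NF-kappaB motif of Cxcl1, Cxcl2 and Cxcl3 was matched on both strands 1 base apart, with first bases at -71 and -70, -97 and -96, and -73 and -72 from the start site. Cxcl10 held it at -159 and -103 and the interferon element at -213. Windows were found for 38 members, 42 windows in all. Of these 42 windows, 6 held the NF-kappaB motif (Ccl1, Ccr6, Cxcl1, Cxcl2, Cxcl3 and Cxcl10), against 4.01% of all 32851 windows. Of the same 42 windows, 2 (Cxcl10 and Cxcl14) held the interferon element, against 3.44% of all windows. A match describes letters in this window and shows no binding.

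Across the members, calls at the adjusted threshold were confined to p53 deficient against miR-34a deficient tumours. There, 3 of 49 members were called against 3.39% of all tested genes: Cxcl16 rose (1 member, against 1.13% of genes) and Ccl24 and Ccl27a fell (2 members, against 2.25%). No member was called in double deficient against wt (0.802% of genes), p53 deficient against wt (0.0234%), miR-34a deficient against wt (0.0375%), double against p53 deficient (0.605%) or double against miR-34a deficient tumours (0.905%), and none in the interaction of the deletions (0.0234%). The interaction asks whether the effect of losing p53 differs with and without miR-34a. Unadjusted, 12 members were at a p under 0.05 in double deficient against wt (15.3% of all genes), 8 in p53 deficient against wt (15.3%) and 7 in miR-34a deficient against wt (6.09%). Between deficient genotypes there were 9 in double against p53 deficient (15.1%), 11 in double against miR-34a deficient (18%), 9 in p53 against miR-34a deficient (23%) and, in the interaction, 5 (7.89%). As shares of the 49 members, in the order given, these counts were 24.5%, 16.3%, 14.3%, 18.4%, 22.4%, 18.4% and 10.2%. Only limma was run.

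All 7 members at an unadjusted p under 0.05 in miR-34a deficient against wt tumours were higher (Ccl21b, Ccr6, Ccl21a, Ccl11, Ccr4, Ccl17 and Cxcl14), as were 8 of 12 in double deficient and 6 of 8 in p53 deficient against wt tumours. Among all genes at that p, 1532 were higher and 1722 lower in double deficient, 1426 higher and 1839 lower in p53 deficient, and 983 higher and 316 lower in miR-34a deficient against wt tumours, so most genes in the last comparison were higher as well. Of the 49 members, 36, 30 and 35 had a log2 difference above 0 in double, p53 and miR-34a deficient against wt tumours, with medians of 0.58, 0.12 and 0.28, against all-gene medians of 0.02, -0.04 and 0.03. These 3 comparisons share the wt libraries. Counting members whose 3 libraries all lay above or all below those of the other genotype, double deficient tumours had 10 members wholly above wt (9.76% of all genes) and 3 wholly below (10.1%). In p53 deficient tumours 5 members lay wholly above wt (6.91%) and 2 wholly below (9.27%), and in miR-34a deficient tumours 11 lay wholly above (6.5%) and 0 wholly below (3.57%). Double deficient tumours had 2 members wholly above (10.7%) and 4 wholly below p53 deficient tumours (8.89%), and 9 wholly above (13%) and 7 wholly below miR-34a deficient tumours (14.3%). Of p53 against miR-34a deficient tumours, 4 members lay wholly above (11.1%) and 8 wholly below (16.6%).

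**Figure D1:**
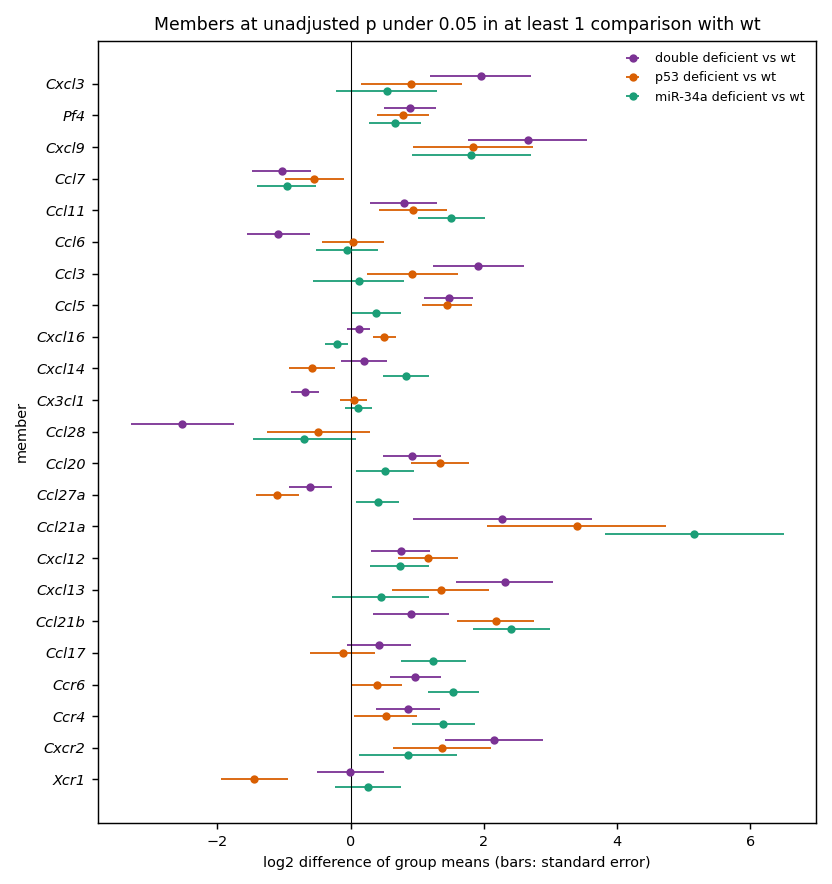
Log2 differences from wt (x axis, points with standard errors, n = 3 libraries per genotype) of the 23 members at an unadjusted p under 0.05 in at least 1 comparison with wt, for double, p53 and miR-34a deficient tumours. Most points lie right of 0, Ccl21a is the farthest right at 5.16 ± 1.34 in miR-34a deficient tumours, and Cx3cl1, Ccl28 and Ccl6 lie left of 0 in double deficient tumours.

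Of the ligands of CXCR2, the receptor that draws neutrophils, Cxcl1, Cxcl2, Cxcl3 and Cxcl5 had higher values in every double deficient than in every miR-34a deficient library, although none passed the adjusted test. Cxcl1 was at 7078, 3883 and 2922 in double deficient, 3524, 1671 and 2672 in p53 deficient, 1581, 1951 and 1209 in miR-34a deficient and 1364, 5820 and 1458 in wt tumours. Cxcl2 was at 6141, 3297 and 3169 in double deficient, 2531, 1212 and 3427 in p53 deficient, 970, 1153 and 998 in miR-34a deficient and 863, 6502 and 1154 in wt tumours. For both ligands all double deficient libraries lay above all miR-34a deficient libraries. For Cxcl2 all p53 deficient libraries lay above them as well, while for Cxcl1 p53 and miR-34a deficient tumours overlapped. Library wt 2 was as high as the double deficient libraries for both ligands, and the remaining wt libraries were low. The log2 difference of double from miR-34a deficient tumours was 1.48 ± 0.52 for Cxcl1 (unadjusted p 0.0158, adjusted p 0.174) and 1.95 ± 0.64 for Cxcl2 (unadjusted p 0.0105, adjusted p 0.149). Without wt 2, which changes only the estimate of the spread in this comparison, Cxcl2 was called (adjusted p 0.0449), as it was with only the compared genotypes in the fit (adjusted p 0.0394).

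Cxcl3 and Cxcl5, further CXCR2 ligands, ran alongside. Cxcl3 was at 685, 547 and 359 in double deficient, 601, 107 and 240 in p53 deficient, 138, 152 and 341 in miR-34a deficient and 56, 442 and 92 in wt tumours. Cxcl5 was at 9101, 10896 and 5561 in double deficient, 22707, 2239 and 10103 in p53 deficient, 1850, 3596 and 4409 in miR-34a deficient and 1709, 8688 and 3667 in wt tumours. Both were above every miR-34a deficient library in all double deficient libraries, with log2 differences of 1.41 ± 0.76 and 1.41 ± 0.77 and adjusted p of 0.356 and 0.361. Against wt the double deficient differences were 0.93 ± 0.52 for Cxcl1, 1.10 ± 0.64 for Cxcl2, 1.95 ± 0.76 for Cxcl3 and 1.11 ± 0.77 for Cxcl5, and none of these groups was apart, since wt 2 was high in each. Leaving wt 2 out, the difference was 1.61 for Cxcl1, 2.003 for Cxcl2, 2.82 for Cxcl3 and 1.71 for Cxcl5, and the adjusted p of the 4 ligands lay between 0.0630 and 0.367. Within p53 deficient tumours the ligands varied widely, with p53 2, the library with low posterior Hox genes, lowest for each of the 4.

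The receptor Cxcr2 was at 42, 49 and 30 in double deficient, 31, 7 and 50 in p53 deficient, 10, 33 and 11 in miR-34a deficient and 5, 20 and 5 in wt tumours. All double deficient libraries lay above all wt libraries, and the log2 difference was 2.15 ± 0.73 (unadjusted p 0.0131, adjusted p 0.193); wt 2 was again the highest wt library. Cxcl15, a CXC ligand known mainly from mouse lung epithelium, was low, at 20, 4 and 3 in double deficient, 9, 0 and 4 in p53 deficient, 5, 3 and 3 in miR-34a deficient and 2, 41 and 0 in wt tumours, with its highest value in wt 2. The platelet ligand Ppbp, another CXCR2 agonist once processed, was at 1079, 312 and 590 in double deficient, 954, 481 and 414 in p53 deficient, 187, 637 and 21302 in miR-34a deficient and 65, 905 and 137 in wt tumours. The value of miR-34a 3 stood far above every other library, and Ppbp had the largest spread within genotypes of all tested members (SD 2.09 on the log2 scale). Pf4, the other platelet ligand of the cluster, was at 272, 147 and 254 in double deficient, 121, 210 and 322 in p53 deficient, 127, 229 and 217 in miR-34a deficient and 117, 144 and 94 in wt tumours, with no such value in miR-34a 3. Double deficient and wt tumours did not overlap for Pf4 (difference 0.89 ± 0.39, adjusted p 0.31).

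Most neutrophil markers were also higher in double deficient than in wt tumours, while Ly6g was lower. S100a9 was at 487, 518 and 448 in double deficient, 684, 24 and 356 in p53 deficient, 35, 171 and 1063 in miR-34a deficient and 22, 93 and 26 in wt tumours. Library p53 2 was low for the marker as it was for Cxcl5 and Cxcr2. In contrast, miR-34a 3 had the highest S100a9 of all libraries, with Cxcr2 at 11, Cxcl1 at 1209, Cxcl2 at 998, Cxcl3 at 341 and Cxcl5 at 4409. Over the 8 markers in the table the mean log2 level spanned 6.87 to 7.14 in double deficient, 4.54 to 6.88 in p53 deficient, 4.64 to 6.44 in miR-34a deficient and 4.13 to 5.25 in wt tumours. In double deficient against wt tumours Retnlg and Ngp rose (5.57 ± 1.11, adjusted p 0.0483, and 3.41 ± 0.64, adjusted p 0.0371) and Ly6g fell (-1.52 ± 0.30, adjusted p 0.0458), and 7 of the 8 markers had a difference above 0. Ly6g was at 1407, 2469 and 1853 in double deficient, 7051, 13517 and 10509 in p53 deficient, 4410, 7457 and 5208 in miR-34a deficient and 4555, 7234 and 4635 in wt tumours, and the summed value of the markers, most of it Ly6g except in double deficient 1, was 3029 to 3540 in double deficient, 8570 to 13653 in p53 deficient, 4605 to 8371 in miR-34a deficient and 4745 to 7537 in wt tumours. Ngp was at 22, 12 and 15 in double deficient and 1, 1 and 0 in wt tumours, and Retnlg at 86, 73 and 32 in double deficient and 0, 1 and 0 in wt tumours, so the size of these differences depends on the pseudocount. Their part in the values of the ligands and of Cxcr2 was not tested.

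**Figure D2:**
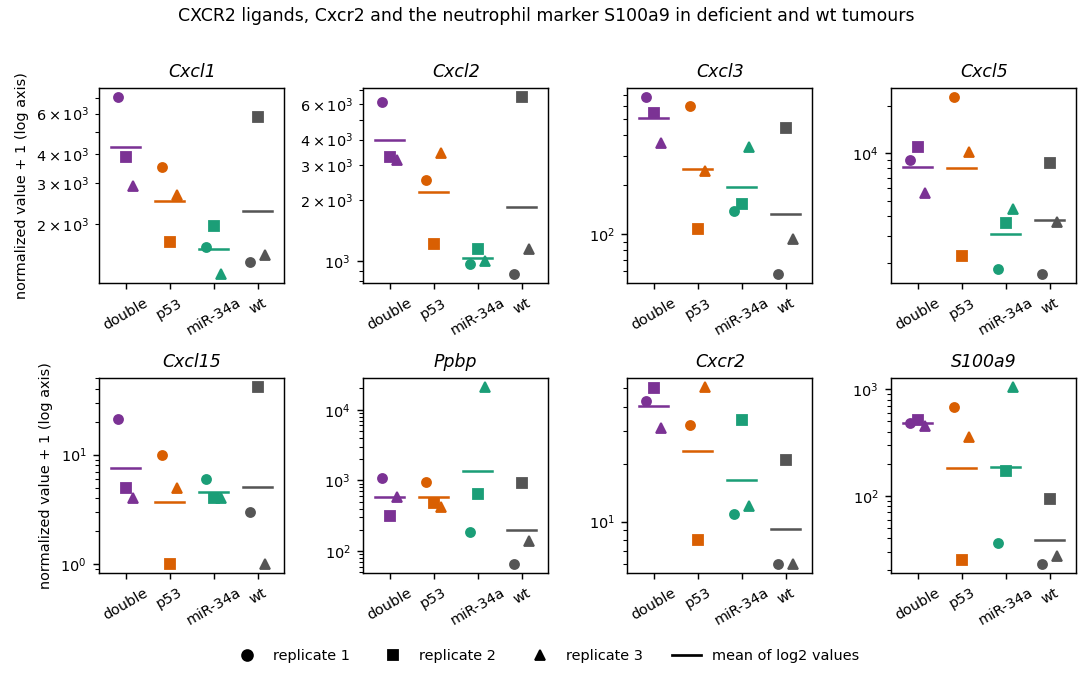
Normalized value + 1 (log axis) of the CXCR2 ligands, Cxcl15, Cxcr2 and the neutrophil marker S100a9 in each library, by genotype; lines are means of the log2 values. In Cxcl1, Cxcl2, Cxcl3 and Cxcl5 all double deficient libraries lie above all miR-34a deficient libraries, wt 2 (square) lies far above the other wt libraries, and Ppbp in miR-34a 3 reaches 21302.

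The CXCR3 ligands Cxcl9, Cxcl10 and Cxcl11, which interferons induce and which attract activated T and NK cells, did not share a pattern. Cxcl9 was at 58, 25 and 22 in double deficient, 51, 2 and 40 in p53 deficient, 17, 25 and 12 in miR-34a deficient and 3, 6 and 4 in wt tumours, and double and miR-34a deficient tumours did not overlap with wt. Its log2 difference from wt was 2.66 ± 0.89 in double deficient (unadjusted p 0.0123, adjusted p 0.19), 1.84 ± 0.89 in p53 deficient and 1.81 ± 0.89 in miR-34a deficient tumours. Library p53 2 carried much of the spread, and without it Cxcl9 was called in double deficient against wt tumours at the same difference, with an adjusted p of 0.0271. Cxcl10 was at 159, 38 and 53 in double deficient, 72, 90 and 77 in p53 deficient, 20, 40 and 14 in miR-34a deficient and 25, 31 and 291 in wt tumours, with wt 3 the highest of the 12 libraries. All p53 deficient libraries exceeded the miR-34a deficient ones (difference 1.78 ± 0.83, adjusted p 0.228). Cxcl11, annotated as a polymorphic pseudogene in the reference, did not exceed 14 in any library. The receptor Cxcr3 was at 1 to 3 throughout, and the T and NK cell markers had mean log2 levels of 2.50 to 3.45 in double deficient, 2.05 to 3.64 in p53 deficient, 2.79 to 3.09 in miR-34a deficient and 2.13 to 2.71 in wt tumours. None of the 12 tested T and NK markers was called in any comparison, and their part in these values was not tested.

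Among inflammatory CC ligands, which draw monocytes, macrophages and T cells, Ccl3, Ccl4 and Ccl5 were higher in double deficient tumours and Ccl6 was lower, all short of the adjusted threshold. Ccl5, made by T cells and many other cells, was at 11, 7 and 7 in double deficient, 7, 12 and 6 in p53 deficient, 3, 4 and 3 in miR-34a deficient and 2, 3 and 2 in wt tumours. Every double and p53 deficient library lay above every miR-34a deficient and wt library, at low values. The 11 CC ligands of the chromosome 11 cluster lie 12.4 to 14.1 Mb from Trp53, Ccl5 at 13.9 Mb. For them, alleles linked to the targeted locus and the deletion itself cannot be told apart in tumours that lack p53. The log2 difference of Ccl5 from wt was 1.47 ± 0.37 in double deficient (adjusted p 0.0992) and 1.45 ± 0.37 in p53 deficient tumours (adjusted p 0.131). From miR-34a deficient tumours it was 1.09 ± 0.37 in double deficient and 1.06 ± 0.37 in p53 deficient tumours (adjusted p 0.161 and 0.121). Without a trend in the prior variance the double deficient difference from wt was called (adjusted p 0.0495).

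Ccl3 and Ccl4, neighbouring genes on chromosome 11 that activated macrophages express, shared 1 pattern across genotypes. Ccl3 was at 44, 47 and 26 in double deficient, 42, 8 and 18 in p53 deficient, 4, 13 and 19 in miR-34a deficient and 5, 19 and 8 in wt tumours. Ccl4 was at 50, 65 and 41 in double deficient, 48, 9 and 18 in p53 deficient, 11, 16 and 22 in miR-34a deficient and 22, 28 and 20 in wt tumours. All double deficient libraries lay above all miR-34a deficient and all wt libraries for both genes. The differences of Ccl3 and Ccl4 from wt were 1.92 ± 0.68 and 1.11 ± 0.52 (adjusted p 0.212 and 0.339), and those from miR-34a deficient tumours 1.79 ± 0.68 and 1.64 ± 0.52 (adjusted p 0.198 and 0.138). Ccl4 had an interaction of 1.83 ± 0.73 (unadjusted p 0.029, adjusted p 0.574). The CCR1 ligand Ccl6 went the other way, at 206, 198 and 163 in double deficient, 434, 293 and 544 in p53 deficient, 431, 735 and 181 in miR-34a deficient and 518, 241 and 512 in wt tumours. Its double deficient libraries lay below all wt and all p53 deficient libraries (-1.08 ± 0.47 and -1.12 ± 0.47, adjusted p 0.3 and 0.284). Ccl9, also a CCR1 ligand, ranged from 15 to 138 and was above every wt library in all double deficient libraries. The receptor Ccr1 overlapped between all genotypes, at 180, 114 and 93 in double deficient, 142, 55 and 89 in p53 deficient, 145, 188 and 117 in miR-34a deficient and 140, 168 and 114 in wt tumours.

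The monocyte and eosinophil ligands held 1 of the 3 calls. Ccl24, a CCR3 ligand that attracts eosinophils (chr5:135569937-135573049, minus strand), was at 11, 0 and 1 in p53 deficient and 25, 19 and 31 in miR-34a deficient tumours, and at 12, 11 and 6 in double deficient and 5, 12 and 7 in wt tumours. All p53 deficient libraries lay below all miR-34a deficient libraries, and the log2 level of Ccl24 fell by 3.15 ± 0.75 in p53 deficient against miR-34a deficient tumours (limma adjusted p 0.0461). Since p53 2 and p53 3 were at 0 and 1, the size depends on the pseudocount: with 10 in place of 1 it was -1.39 (adjusted p 0.0299). In double against p53 deficient tumours Ccl24 differed by 1.84 ± 0.75 (adjusted p 0.276), and without p53 1, the library at 11, it was called there with 2.86 (adjusted p 0.0301). Without counts the precision of such low values is unknown. Ccl11, a further eosinophil ligand, was at 11, 10 and 9 in double deficient, 10, 7 and 19 in p53 deficient, 17, 35 and 8 in miR-34a deficient and 6, 5 and 5 in wt tumours. Every deficient library exceeded every wt library, and the largest difference from wt was 1.51 ± 0.51 in miR-34a deficient tumours (unadjusted p 0.0118, adjusted p 0.733).

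The CCR2 ligands that recruit monocytes did not follow the neutrophil ligands. Ccl2 was at 141, 138 and 68 in double deficient, 197, 77 and 88 in p53 deficient, 86, 250 and 150 in miR-34a deficient and 123, 364 and 313 in wt tumours. Ccl7 was at 75, 116 and 57 in double deficient, 119, 135 and 87 in p53 deficient, 58, 137 and 73 in miR-34a deficient and 90, 259 and 187 in wt tumours. For both, wt 2 and wt 3 were high and wt 1 was within the range of the deficient libraries. The double deficient difference from wt was -1.13 ± 0.54 for Ccl2 and -1.04 ± 0.45 for Ccl7 (adjusted p 0.351 and 0.302). The receptor Ccr2 was at 19, 8 and 8 in double deficient, 14, 4 and 7 in p53 deficient, 13, 18 and 14 in miR-34a deficient and 11, 15 and 14 in wt tumours, with overlap between all genotypes. Ccl8 and Ccl12 stayed at 0 to 21 and overlapped between all genotypes. Macrophage and monocyte markers had mean log2 levels of 7.81 to 8.61 in double deficient, 7.51 to 7.65 in p53 deficient, 7.94 to 8.47 in miR-34a deficient and 7.79 to 8.31 in wt tumours, and their part in these values was not tested.

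The epithelial and mucosal ligands held the remaining calls. Cxcl16, a transmembrane ligand of CXCR6 that also acts as a scavenger receptor (chr11:70453983-70459984, minus strand), was at 2200, 2794 and 2922 in p53 deficient and 1793, 1650 and 1388 in miR-34a deficient tumours, and at 1886, 2002 and 2157 in double deficient and 2242, 1810 and 1555 in wt tumours. The p53 deficient libraries were all above the miR-34a deficient and double deficient libraries and overlapped with wt 1 alone. The log2 level of Cxcl16 rose by 0.71 ± 0.17 in p53 deficient against miR-34a deficient tumours (limma adjusted p 0.0482), with the smallest spread within genotypes of all tested members (SD 0.202). Its difference from wt was 0.50 ± 0.17 in p53 deficient (adjusted p 0.209) and 0.12 ± 0.17 in double deficient tumours. Cxcl16 lies 0.862 Mb from Trp53 on chromosome 11, so alleles linked to the targeted locus and the deletion itself cannot be told apart in p53 deficient tumours.

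Ccl27a, a CCR10 ligand best known from skin keratinocytes (chr4:41769467-41774247, minus strand), was at 110, 136 and 89 in p53 deficient and 248, 319 and 391 in miR-34a deficient tumours, and at 232, 119 and 136 in double deficient and 184, 330 and 219 in wt tumours. All p53 deficient libraries lay below all miR-34a deficient and all wt libraries. The log2 level of Ccl27a fell by 1.50 ± 0.32 in p53 deficient against miR-34a deficient tumours (limma adjusted p 0.0366). It differed from wt by -1.10 ± 0.32 in p53 deficient tumours (adjusted p 0.163) and from miR-34a deficient tumours by -1.01 ± 0.32 in double deficient tumours (adjusted p 0.142). The gene has near-identical copies nearby, so the split of its reads between copies is uncertain. Cxcl14, an epithelial and stromal ligand (chr13:56288643-56296551, minus strand), came next without passing: it was at 862, 881 and 954 in p53 deficient and 2437, 2577 and 2172 in miR-34a deficient tumours, with no overlap, and at 2523, 1098 and 1328 in double deficient and 1163, 2362 and 884 in wt tumours. Its difference of p53 from miR-34a deficient tumours was -1.41 ± 0.35 (adjusted p 0.0521). Cxcl14 was called where genes with a mean of at least 10 were tested (adjusted p 0.0494) and with only the compared genotypes in the fit (0.0229). It was also called without wt 2 (0.0319), without wt 3 (0.0395) or without double deficient 1 (0.0357).

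The 3 calls were narrow. All were lost when any miR-34a deficient library was left out, and likewise without p53 2, without p53 3 or without double deficient 3, with adjusted p between 0.0596 and 0.152, although none changed sign. Ccl24 was also lost without any wt library or without double deficient 1 or 2 (adjusted p 0.0533 to 0.0613), and Cxcl16 without wt 2 or double deficient 1 or 2 (0.0547 to 0.0653). Quantile normalization, or a covariate for the missing direction or the Y-linked level, likewise ended all 3 calls (adjusted p 0.0517 to 0.177). So did the replicate block (0.0530 to 0.0713), leaving out wt 1 and miR-34a 1, which had no Y-linked level (0.0905 to 0.133), and fitting only the genotypes compared (0.0779 to 0.125). Ccl24 and Cxcl16 were also lost with no filter on low values (0.0558 and 0.0501) and with no trend in the prior variance (0.0614 and 0.0771). Without miR-34a 1 and p53 1, the libraries of the other run code, Ccl24 was called and Ccl27a and Cxcl16 were not (adjusted p 0.0231, 0.0780 and 0.0566). In p53 against miR-34a deficient tumours, where 42.6% of all genes had a difference above 0, all 8 fibroblast markers and 7 of 8 endothelial markers had a difference below 0. So did 7 of 7 mast cell markers (median -1.58), 9 of 12 macrophage and monocyte markers (median -0.91) and 5 of 6 tested dendritic cell markers (median -0.83). Of the tested B and plasma cell markers, 4 of 5 were below 0 (median -0.49). Other lists leaned the other way: 8 of 10 epithelial markers were above 0 (median 0.17), as were 5 of 8 neutrophil markers (median 0.24). Above 0 were also 7 of 12 tested T and NK cell markers (median 0.21) and 3 of 5 platelet and megakaryocyte markers (median 0.78). Fibroblast markers had mean log2 levels of 9.31 to 10.2 in p53 deficient and 10.4 to 10.9 in miR-34a deficient tumours. Endothelial markers had 7.15 to 8.13 in p53 deficient and 8.33 to 8.63 in miR-34a deficient tumours. Of the endothelial list only the transcription factor Prox1 was called, and it fell (-2.77 ± 0.56, adjusted p 0.0306), at 8103, 1524 and 7731 in p53 deficient and 33185, 24460 and 37390 in miR-34a deficient tumours. Which cells of the tumours expressed Prox1 was not tested. The lymphatic marker Lyve1 overlapped, at 72, 39 and 152 in p53 deficient and 39, 68 and 73 in miR-34a deficient tumours. The dendritic cell receptor Clec9a passed the adjusted test (-1.72 ± 0.37, adjusted p 0.0362) at values of 0, 0 and 0 in p53 deficient and 3, 2 and 2 in miR-34a deficient tumours, too low to read a size from. Their part in the 3 calls was not tested.

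**Figure D3:**
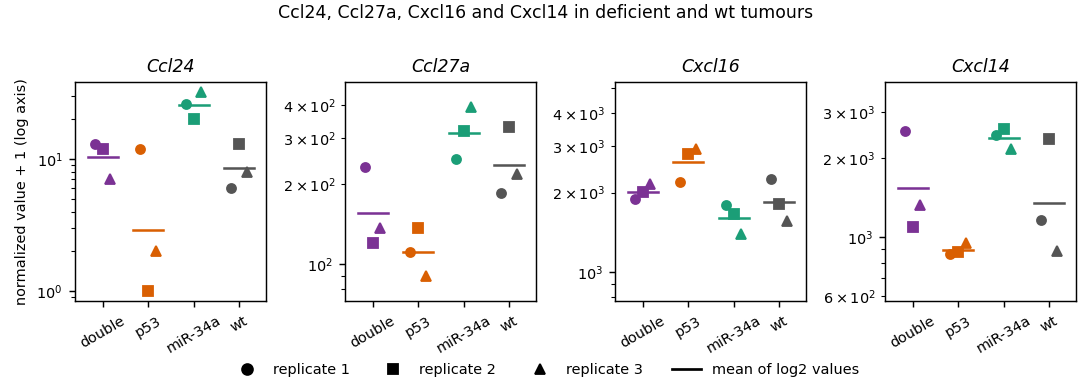
Normalized value + 1 (log axis) of Ccl24, Ccl27a, Cxcl16 and Cxcl14 in each library, by genotype; lines are means of the log2 values. In Ccl24, Ccl27a and Cxcl14 all p53 deficient libraries lie below all miR-34a deficient libraries, and in Cxcl16 all lie above, between 2200 and 2922 against 1388 to 1793.

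Cx3cl1, the membrane-bound ligand of CX3CR1 that holds macrophages and lymphocytes at the epithelium (chr8:94772009-94782427, plus strand), was lowest in double deficient tumours. It was at 289, 475 and 450 in double deficient, 606, 670 and 701 in p53 deficient, 743, 617 and 712 in miR-34a deficient and 702, 566 and 649 in wt tumours. Every double deficient library lay below every other library, and the remaining genotypes overlapped. The log2 difference was -0.69 ± 0.20 from wt, -0.73 ± 0.20 from p53 deficient and -0.80 ± 0.20 from miR-34a deficient tumours, with unadjusted p of 0.00598, 0.00394 and 0.00222 and adjusted p of 0.15, 0.132 and 0.0865. The interaction was -0.85 ± 0.29 (unadjusted p 0.013, adjusted p 0.517). The receptor Cx3cr1 was at 2924, 1836 and 2082 in double deficient, 1896, 2535 and 1694 in p53 deficient, 2097, 2132 and 2027 in miR-34a deficient and 2135, 2042 and 1440 in wt tumours, and the genotypes overlapped.

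Ccl28, an epithelial ligand that attracts IgA plasma cells, was at 38, 311 and 97 in double deficient, 330, 794 and 313 in p53 deficient, 498, 724 and 148 in miR-34a deficient and 962, 322 and 732 in wt tumours. Double deficient libraries lay below all wt and all p53 deficient libraries, narrowly, since double deficient 2 was at 311 and p53 3 at 313. The differences were -2.53 ± 0.77 from wt and -2.04 ± 0.77 from p53 deficient tumours (adjusted p 0.159 and 0.246). Ccl20, which attracts CCR6-bearing lymphocytes and dendritic cells, was at 491, 258 and 235 in double deficient, 367, 776 and 251 in p53 deficient, 199, 329 and 197 in miR-34a deficient and 190, 204 and 113 in wt tumours. All double and p53 deficient libraries exceeded all wt libraries, with differences of 0.92 ± 0.44 and 1.34 ± 0.44 (adjusted p 0.349 and 0.193). Its receptor Ccr6 was at 5, 3 and 4 in double deficient, 2, 2 and 3 in p53 deficient, 6, 7 and 6 in miR-34a deficient and 1, 3 and 1 in wt tumours, with a miR-34a deficient difference from wt of 1.54 ± 0.38 (unadjusted p 0.00187, adjusted p 0.417) at values of 7 or less.

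Ccl25, the CCR9 ligand that homes lymphocytes to the gut, was at 531, 399 and 387 in double deficient, 372, 533 and 303 in p53 deficient, 671, 550 and 454 in miR-34a deficient and 394, 449 and 384 in wt tumours, and all miR-34a deficient libraries lay above all wt libraries (0.43 ± 0.24, adjusted p 0.897). Ccr9 overlapped between all genotypes, at 429, 229 and 317 in double deficient, 320, 239 and 283 in p53 deficient, 363, 244 and 314 in miR-34a deficient and 306, 272 and 304 in wt tumours. Cxcl17, a mucosal ligand, was at 15 to 59 in every library except double deficient 1, at 315. The 10 epithelial markers had mean log2 levels of 13.5 to 14.2 in double deficient, 14.3 to 14.6 in p53 deficient, 14.0 to 14.6 in miR-34a deficient and 14.3 to 14.9 in wt tumours, and 9 of 10 had a difference below 0 in double deficient against wt tumours (median -0.27), as did 10 of 10 in miR-34a deficient against wt tumours (median -0.27). None was called in any comparison, and their part in the values of Cx3cl1 and Ccl28 was not tested. Ccr10 and Cxcr6, the receptors of Ccl28 and Cxcl16, were not analysed here.

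**Figure D4:**
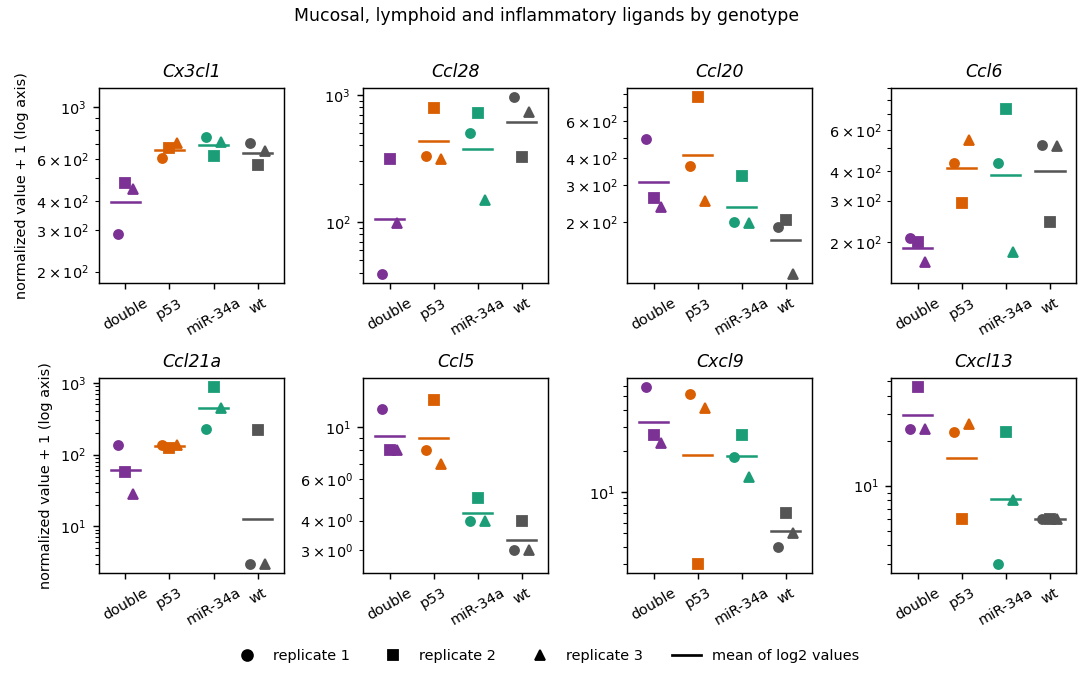
Normalized value + 1 (log axis) of 8 ligands in each library, by genotype; lines are means of the log2 values. All double deficient libraries lie below all other libraries in Cx3cl1, all double and p53 deficient libraries lie above all miR-34a deficient and wt libraries in Ccl5, and Ccl21a is at 2 in wt 1 and wt 3 against 216 in wt 2.

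Of the lymphoid and homeostatic ligands, all 7 tested members had a difference above 0 in double and in miR-34a deficient against wt tumours, and 5 of 7 in p53 deficient against wt tumours, with medians of 0.91, 0.91 and 1.16. None was called. Ccl21a, which guides CCR7-bearing dendritic cells and naive T cells along lymphatic vessels, was at 136, 57 and 27 in double deficient, 135, 121 and 136 in p53 deficient, 228, 885 and 439 in miR-34a deficient and 2, 216 and 2 in wt tumours. All miR-34a deficient libraries exceeded all others, while wt 2 was far above wt 1 and wt 3. The miR-34a deficient difference from wt was 5.16 ± 1.34 (unadjusted p 0.00256, adjusted p 0.493) and the interaction -6.28 ± 1.90 (adjusted p 0.466). Without wt 2, Ccl21a was called against wt in every deficient genotype, at 4.34 in double, 5.45 in p53 and 7.22 in miR-34a deficient tumours (adjusted p 0.0232, 0.0360 and 0.00348), and in the interaction at -8.34 (adjusted p 0.0108). Ccl21b, its near-identical neighbour, was at 10, 2 and 3 in double deficient, 11, 13 and 10 in p53 deficient, 8, 23 and 13 in miR-34a deficient and 1, 4 and 1 in wt tumours. Its differences from wt were 2.18 ± 0.57 in p53 and 2.41 ± 0.57 in miR-34a deficient tumours (adjusted p 0.136 and 0.39), with an interaction of -3.68 ± 0.81 (unadjusted p 0.000781, adjusted p 0.316). The Ccl21 copies on chromosome 4 share sequence, so the split of reads between them is uncertain. Their receptor Ccr7 was at 19, 18 and 26 in double deficient, 8, 13 and 39 in p53 deficient, 15, 26 and 16 in miR-34a deficient and 11, 22 and 15 in wt tumours, with overlap throughout.

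Cxcl13, which organises B cell follicles through CXCR5, was at 23, 45 and 23 in double deficient, 22, 5 and 25 in p53 deficient, 2, 22 and 7 in miR-34a deficient and 5, 5 and 5 in wt tumours. All double deficient libraries lay above all wt and all miR-34a deficient libraries, with differences of 2.31 ± 0.73 and 1.86 ± 0.73 (adjusted p 0.165 and 0.207). Its receptor Cxcr5 was at 14, 12 and 14 in double deficient, 11, 13 and 27 in p53 deficient, 15, 31 and 17 in miR-34a deficient and 20, 22 and 8 in wt tumours. Double deficient libraries lay just below the miR-34a deficient ones and overlapped with the others. Cxcl12, the stromal ligand of CXCR4, was at 177, 198 and 103 in double deficient, 436, 137 and 142 in p53 deficient, 170, 155 and 133 in miR-34a deficient and 66, 129 and 88 in wt tumours, and all p53 and all miR-34a deficient libraries exceeded wt (1.16 ± 0.45 and 0.74 ± 0.45, adjusted p 0.255 and 0.903). Cxcr4 overlapped between the genotypes, at 211, 73 and 105 in double deficient, 75, 65 and 92 in p53 deficient, 70, 111 and 103 in miR-34a deficient and 68, 117 and 56 in wt tumours.

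The CCR4 ligands Ccl17 and Ccl22, made by dendritic cells and macrophages, had their highest mean in miR-34a deficient tumours. Ccl17 was at 4, 12 and 7 in double deficient, 7, 2 and 6 in p53 deficient, 18, 14 and 9 in miR-34a deficient and 5, 5 and 5 in wt tumours. Ccl22 was at 15, 14 and 16 in double deficient, 7, 6 and 16 in p53 deficient, 24, 32 and 21 in miR-34a deficient and 10, 17 and 15 in wt tumours. Both lay above all p53 deficient and all wt libraries in every miR-34a deficient library. The difference of p53 from miR-34a deficient tumours was -1.36 ± 0.48 for Ccl17 and -1.42 ± 0.40 for Ccl22 (adjusted p 0.128 and 0.074). Their receptor Ccr4 was at 2, 1 and 1 in double deficient, 1, 2 and 0 in p53 deficient, 2, 2 and 3 in miR-34a deficient and 1, 0 and 0 in wt tumours, too low to read a difference from. Xcr1, the receptor of cross-presenting dendritic cells, was at 3, 3 and 4 in double deficient, 1, 0 and 1 in p53 deficient, 6, 3 and 4 in miR-34a deficient and 2, 2 and 8 in wt tumours. The p53 deficient libraries lay below every other library, with differences of -1.45 ± 0.50 from wt and -1.71 ± 0.50 from miR-34a deficient tumours (adjusted p 0.215 and 0.0804), and the second was called without wt 3 (adjusted p 0.0432). Clec9a, a marker of the same cells, did not exceed 3 in any library. Xcl1 was at 1 in miR-34a 1 and at 0 elsewhere, Ccr8 did not exceed 2, and Ccl1 was at 1 to 10 with overlap throughout.

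The members' spread between libraries of 1 genotype was larger than that of all tested genes, which were not matched to them for level. The median within-genotype SD on the log2 scale was 0.646 over the tested members, against 0.411 over all tested genes. Of the 21322 tested genes 9791 had a mean of at least 500, whereas many members were under 100. The part of level in this difference was not tested. Within genotypes some libraries carried much of it: wt 2 was the highest wt library in 29 of 49 members, miR-34a 2 the highest miR-34a deficient library in 29, and double deficient 1 the highest double deficient library in 34, against 32.1%, 36.4% and 46% of all genes. Library p53 2 was the lowest p53 deficient library in 26 members, against 35.6% of all genes. The mean values of the members covered a wide range, with 7 at 1000 or more, 14 from 100 to 1000, 16 from 10 to 100, 12 from 1 to 10 and 2 under 1.

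**Figure D5:**
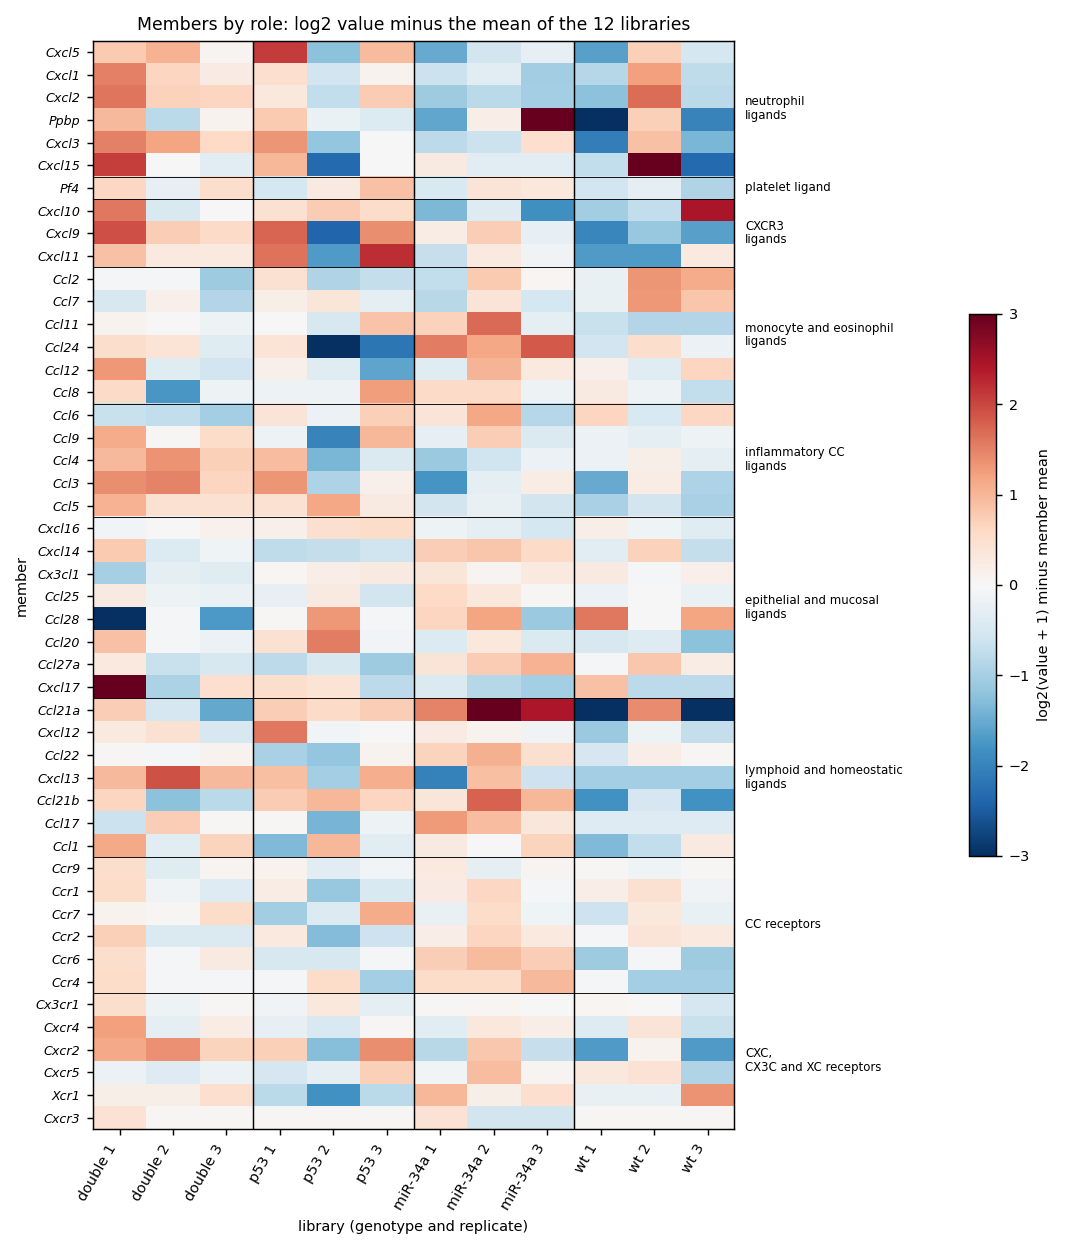
Log2(value + 1) of 48 tested members minus each member's mean over the 12 libraries (colour, red above and blue below), with libraries in columns by genotype and members in rows by role. Cxcl1, Cxcl2 and Cxcl3 are red in the double deficient libraries and in wt 2, Ccl21a and Ccl21b are blue in wt 1 and wt 3, and Cx3cl1 is blue in the double deficient libraries.

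Other genes of chemokine signalling were read from lists of upstream cytokines and NF-kappaB feedback genes, atypical receptors, downstream signalling genes and trimming or matrix-binding genes. Of the 18 tested upstream genes, Nfkbiz, an NF-kappaB cofactor, rose in p53 against miR-34a deficient tumours (0.80 ± 0.18, adjusted p 0.0389), at 5384, 5687 and 5846 in p53 deficient and 3172, 3936 and 2706 in miR-34a deficient tumours. It was the only called gene of the 4 lists in any comparison. In double deficient against wt tumours 14 of the 18 upstream genes had a difference above 0 (median 0.24, all genes 0.02), as did 4 of 5 atypical receptors (median 0.88), 8 of 21 downstream genes (median -0.08) and 6 of 11 trimming and matrix genes (median 0.16). Of these 18 upstream genes, Il6, Il17a, Lta and Rel lay wholly above wt in double deficient tumours (9.76% of all genes). Wholly below lay 0 (10.1% of all genes), and none of them was called. The cytokine Il6 was at 70, 165 and 100 in double deficient and 10, 4 and 30 in wt tumours (3.15 ± 0.88, adjusted p 0.129), and the NF-kappaB subunit Rel at 514, 735 and 598 in double deficient and 259, 311 and 295 in wt tumours (1.08 ± 0.29, adjusted p 0.118). Il17a was at 11, 32 and 11 in double deficient and 4, 8 and 5 in wt tumours, and Lta at 6, 4 and 4 in double deficient and 1, 2 and 1 in wt tumours. Rel and Lta also lay wholly above wt in p53 deficient tumours (6.91% of all genes), and 0 upstream genes lay wholly below (9.27%). There Rel was at 1179, 519 and 771 and Lta at 4, 4 and 5. Il6, at 46, 15 and 19, and Il17a, at 13, 0 and 4 in p53 deficient tumours, overlapped with wt. The inducers Il1b and Tnf overlapped between double deficient and wt tumours, with Il1b at 948, 975 and 538 in double deficient and 452, 1667 and 322 in wt tumours and Tnf at 959, 450 and 686 in double deficient and 571, 866 and 339 in wt tumours. As for Cxcl1 and Cxcl2, wt 2 was the highest wt library for both.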

How the data were processed

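RNA of 12 colon tumour libraries, 3 for each of the double deficient, p53 deficient, miR-34a deficient and wt genotypes, was isolated with a column kit and sequenced on libraries made by Illumina protocols, per the labels' protocols. The deposited scores are expression values per gene symbol, already normalized and rounded to whole numbers by the authors, judged from the values themselves. The submitters' processing notes name mm10 as the build. Information on alignment, counting, strand use and scaling was not given in the sources used here. Counts were allowed for when the tests were set, but the values are normalized, so count tests were not used and the depth of each library is unknown. No per-sample column was left unused (0).

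Genes with a mean of at least 1 were fitted with limma 3.58.1 in R 4.3.3 on log2(value + 1), with 1 mean per genotype, 8 residual degrees of freedom, a trend in the prior variance and Benjamini-Hochberg adjustment over 21322 genes, for 6 pairs of genotypes and the interaction. The fit was tested on simulated data. Genes named with full values were those called, the 5 smallest p in each direction of the comparisons with wt and of double with each lone deletion, and known ligand and receptor pairs. Members and lists were chosen with earlier results of these data known. Positions are from GENCODE M21 (GRCm38) and promoters from RefSeq (GRCm38.p6). The values of 1 tested member are not reported here, though it enters the counts over all members. Several other receptors and ligands were not analysed here. Alternatives were other scalings, pseudocounts, filters, covariates and left-out libraries.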

Additional observations from a re-analysis of the deposited data

How the results depend on the processing

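In p53 against miR-34a deficient tumours the number of called members was 3 in the fit reported. It was 0 with quantile normalization, 0 with the replicate block, 0 with a covariate for the missing direction, 0 with one for the Y-linked level and 0 without wt 1 and miR-34a 1, which had no Y-linked level (an alternative chosen after seeing the data). It was 1 with no filter on low values, 1 with no trend in the prior variance, 1 without miR-34a 1 and p53 1, of the other run code, and 1 with only the genotypes compared in the fit (Cxcl14, adjusted p 0.0229, with all 3 reported calls lost), and it ranged from 0 to 4 when 1 library was left out. The count of 0 in double deficient against wt became 1 with no trend (Ccl5), and that in double against miR-34a deficient tumours became 1 with only the compared genotypes (Cxcl2). Leaving out 1 library gave 0 to 1 called members in each of the other comparisons: double deficient against wt (Ccl21a without wt 2, Cxcl9 without p53 2), p53 deficient against wt and miR-34a deficient against wt (Ccl21a without wt 2), double against p53 deficient (Ccl24 without p53 1), double against miR-34a deficient (Cxcl2 without wt 2) and the interaction (Ccl21a without wt 2). The cause was not tested. Of 61 log2 differences followed under 25 alternatives (24 for the interaction, where the fit on compared genotypes alone was not run), 0 reversed; 50 of the values so obtained fell short of the threshold where the reported one passed it, and 14 the other way. Over all 49 tested members, those with 1 sign in every alternative were 36, 29 and 32 in double, p53 and miR-34a deficient against wt, 29 and 38 in double against p53 and miR-34a deficient, 26 in p53 against miR-34a deficient tumours and 27 in the interaction. Quantile normalization moved the median of all genes by 0.13 (log2) in p53 against miR-34a deficient tumours, and all 3 called members kept their direction there. Replicate numbers were not used as pairs: the deviations of libraries with the same number had a correlation over 0.1 in 7 of 18 pairs, and 4 of 12 libraries correlated best with a library of that number. Depth and counting error are unknown, and 3 libraries per genotype limit the precision of every difference.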
